A study of Mus musculus with 8 samples.

Results

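The 10 genes described here make up the insulin-like growth factor (IGF) axis of the embryonic brain: the ligands Igf2 and Igf1, the noncoding RNA H19 of the Igf2 locus, the receptors Igf1r, Insr and Igf2r, the adaptors Irs1 and Irs2, and the binding proteins Igfbp2 and Igfbp5. They were chosen by name from the pathway, with earlier results of these data known. They are 10 of the 24420 genes listed for total RNA, and all 10 were among the 14594 with enough reads to be tested. The study sequenced RNA from E11.5 mouse brain (neural tube) of embryos that lacked both Lin28 genes (Lin28a-/-;b-/-, called dKO) and of wildtype control embryos (WT). Each genotype was read as total RNA and as polysomal RNA (messenger RNA loaded with several ribosomes), which gave 4 groups of 2 replicates: dKO polysomal, WT polysomal, dKO total and WT total. The series title sets these data in the context of Lin28, protein synthesis and the upkeep of neural progenitors. The labels name no Cre or other tissue-limited allele and leave unsaid whether the replicates are different embryos or litters. The p-values therefore reflect the variation among these libraries alone, and that variation may be technical.

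IGF1 and IGF2 are secreted growth factors that act through the receptor tyrosine kinase IGF1R, and IGF2 also through an isoform of the insulin receptor. Activated receptors pass the signal through the IRS adaptors to PI3K and AKT, while IGF2R carries IGF2 to the lysosome and the binding proteins hold the ligands outside the cell. In the early brain IGF2 reaches neural progenitors from the choroid plexus, the fluid of the ventricles, the vessels and the mesenchyme around the neural tube. Igf2 and H19 are imprinted neighbours that use shared enhancers, in most but not all tissues with Igf2 active on the paternal and H19 on the maternal chromosome. LIN28A and LIN28B block the maturation of let-7 microRNAs, and the insulin and IGF pathway is among the known targets of let-7. LIN28A has also been reported to bind Igf2 mRNA in muscle cells.

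The let-7 microRNAs are shown because their seed (bases 2 to 8, in capitals) is what a target messenger RNA pairs with. In RefSeq (GRCm38.p6), 11 of 11 mature rows of the let-7 and miR-98 family carried the seed GAGGUAG, and 3 examples follow.
mmu-let-7a-5p: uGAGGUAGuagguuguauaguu
mmu-let-7b-5p: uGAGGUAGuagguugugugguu
mmu-let-7g-5p: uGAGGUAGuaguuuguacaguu

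The reverse complement of that seed, CTACCTC, or CTACCTCA where an A follows, was looked for on the sense strand in the 3′ UTR of GENCODE M21 (GRCm38). The longest such UTR of each gene was searched. Among 21020 genes with such a UTR, 9.02% held the 7-base match and 3.06% the 8-base match, of which every 8-base match is also a 7-base match. Of the 9 protein-coding genes of the axis, 5 held an 8-base match, 1 held only a 7-base match and 3 held none. The matches are printed 5′ to 3′ on the gene's strand with the match in capitals.
Igf1 (chr10:87932080-87932101, plus strand): aatatgtcatctacCTACCTCA
Igf1r (chr7:68229111-68229132, plus strand): tttcaaacatttatCTACCTCA
Igf1r, the second match (chr7:68233217-68233238, plus strand): ttgccagagttcatCTACCTCt
Insr (chr8:3153198-3153219, minus strand): cttctcagtacagtCTACCTCA
Igf2r (chr17:12683036-12683057, minus strand): acctgctccgtgccCTACCTCA
Irs2 (chr8:10986528-10986549, minus strand): aaactaccacagtcCTACCTCA
Igfbp5 (chr1:72859679-72859700, minus strand): ttccccaggtcagcCTACCTCc

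All 3 receptors and Irs2 thus carried the 8-base match, while Igf2, Irs1 and Igfbp2 carried neither form in the UTRs searched. A long UTR holds a match more often than a short UTR does. Among UTRs within 20% of the gene's own length, a 7-base match was found in 38.4% for Igf1r, 33.2% for Igf1, 24.8% for Insr, 24.2% for Igfbp5, 13.9% for Irs2 and 9.24% for Igf2r. For the genes without a match the same share was 24.1% for Irs1, 15.5% for Igf2 and 2.18% for Igfbp2. An 8-base match was found in 13.1% of UTRs near the length of Igf1r and 12.6% for Igf1. That share was 8.89% for Insr, 4.46% for Irs2 and 3.02% for Igf2r. A match of letters is a description and does not show binding.

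The Igf2 locus also codes for microRNAs of its own, from the RNAs that are measured below. In the annotation miR-675 lies in an exon of H19 and miR-483 in an intron of Igf2, and their mature arms are shown in the same way, seed in capitals.
mmu-miR-675-5p: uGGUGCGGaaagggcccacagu
mmu-miR-675-3p: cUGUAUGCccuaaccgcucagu
mmu-miR-483-5p: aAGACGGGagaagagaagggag
mmu-miR-483-3p: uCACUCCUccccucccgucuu

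None of these seeds is that of let-7. H19 (chr7:142575529-142578143) and Igf2 (chr7:142650766-142666816) lie on the minus strand of chromosome 7, 72.6 kb apart. Igfbp2 (chr1:72824503-72852474, plus strand) and Igfbp5 (chr1:72857932-72874884, minus strand) are neighbours on chromosome 1, 5.5 kb apart. Igf1 lies on chromosome 10, Igf1r on 7, Insr and Irs2 on 8, Igf2r on 17 and Irs1 on 1.

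The libraries of total RNA held 15768767 and 15612883 counts in dKO and 15650360 and 15060560 counts in WT. The polysomal table was of another kind: it listed 5804 genes, whose counts summed to 3740980 and 5164982 in dKO and 14874143 and 15414712 in WT, so these sums are not library depths. Lin28a fell in dKO total RNA, with 103 and 120 counts in dKO against 1151 and 1091 in WT (log2 fold change -3.35 ± 0.12, SE), and Lin28b fell by 1.28 ± 0.07, so reads of both genes remained in dKO. The polysomal libraries showed the same order (Lin28a -2.69 ± 0.15, Lin28b -2.06 ± 0.16, or -0.85 for Lin28b with the adjustment for transcript GC content described below). Xist was at 106 to 111 CPM in dKO and 162 to 169 CPM in WT, and Ddx3y at 33.3 to 38.7 CPM in dKO and 23.9 to 25.9 CPM in WT, so levels of these sex-linked RNAs differed between genotypes, and their part in the results below was not tested. The chi-square statistic between replicates, per degree of freedom, was 24.6 for the dKO polysomal pair and 2.75 to 3.02 for the other 3 pairs.

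Per kilobase of exon, H19 and Igf2 were the most abundant RNAs of the axis in total RNA. H19 averaged 385 ± 4.66 CPM per kb in dKO and 470 ± 7.93 in WT (SD, n = 2 each, CPM being counts scaled to a common library size by TMM). Igf2 averaged 157 ± 1.66 CPM per kb in dKO and 128 ± 1.03 in WT. Igfbp2 came next, at 104 ± 1.36 CPM per kb in dKO and 126 ± 0.67 in WT, so that Igf2 stood 1.51-fold above it in dKO and only 1.02-fold above it in WT, in both cases without overlap between their libraries. The other 7 genes were far lower, with Igfbp5 at 23.6 and Irs1 at 19.9 CPM per kb leading them in dKO, and Igfbp5 at 30.3 and Irs1 at 15.1 in WT. Igf1r, Igf2r and Insr followed in that order in both genotypes, at 10.9, 7.76 and 6.80 CPM per kb in dKO and 11.6, 8.36 and 6.39 in WT. Igf1 (4.93 CPM per kb in dKO, 4.30 in WT) and Irs2 (3.58 in dKO, 4.17 in WT) were lowest, and in WT these 2 overlapped between libraries. No other neighbours in either order overlapped between their libraries.

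**Figure D1:**
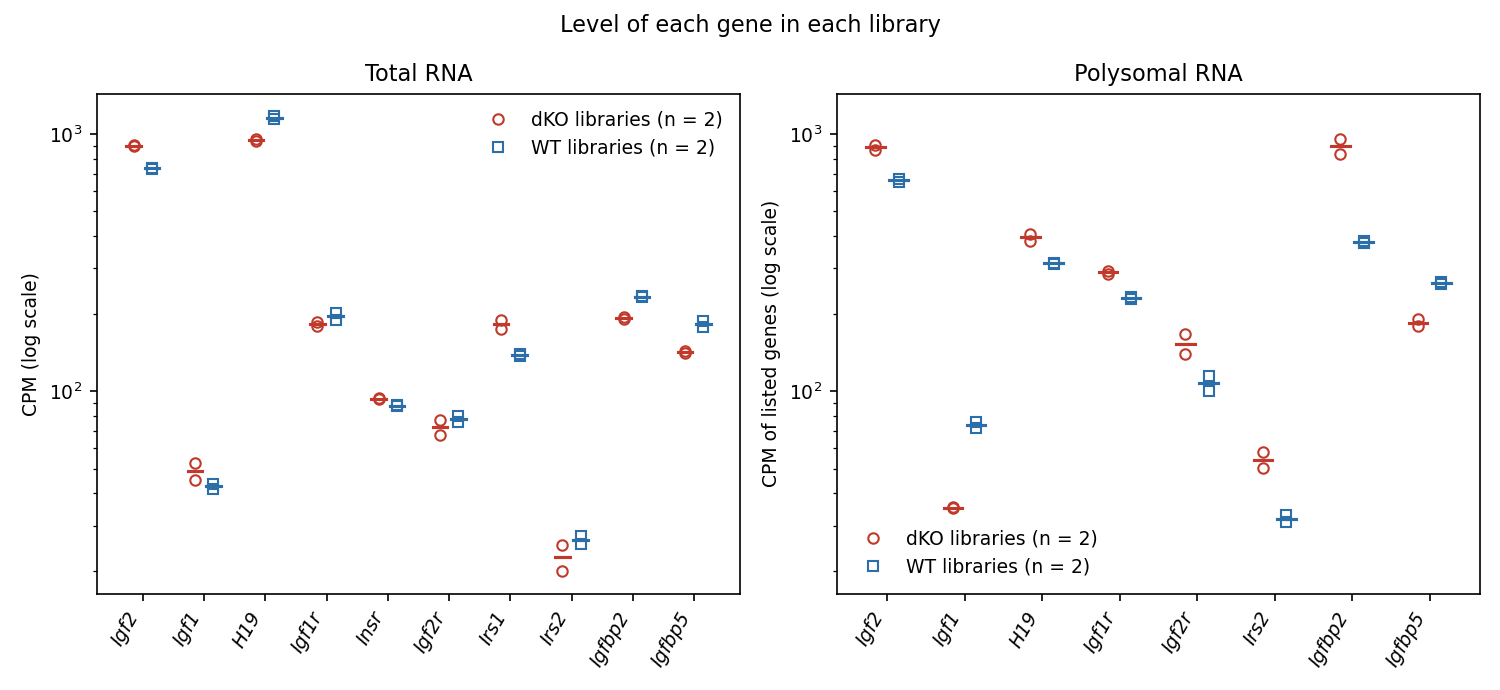
TMM-scaled CPM (log scale) of each gene in each library of total RNA (left) and polysomal RNA (right, CPM of the listed genes), with dKO left of WT; points are libraries and bars are means of n = 2. Igf2 and Irs1 lie higher and H19, Igfbp2 and Igfbp5 lower in dKO total RNA, while Igfbp2 reaches 833 and 955 CPM in dKO polysomal RNA against 384 and 377 CPM in WT.

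In total RNA the genes of the axis differed between dKO and WT in both directions. Igf2 and the adaptor Irs1 rose in dKO, while H19, Igfbp2 and Igfbp5 fell, and the 3 receptors, Igf1 and Irs2 did not pass the threshold. That is 5 of 10 genes called (2 higher, 3 lower) with the edgeR quasi-likelihood test at a Benjamini-Hochberg adjusted p under 0.05, where 30.7% of all genes tested were called. The median log2 fold change of the 10 was -0.10, and that of all genes tested was 0.00. The changes that passed were of 1.21- to 1.32-fold.

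Among the ligands, Igf2 had 907 and 893 CPM in dKO libraries, against 739 and 731 CPM in WT libraries. Both dKO libraries lay above both WT libraries. The log2 fold change was 0.29 ± 0.02 (SE), a 1.22-fold rise, with an edgeR adjusted p of 1.14e-30. Igf1, the ligand that later carries much of postnatal growth, had 45.2 and 52.4 CPM in dKO and 43.5 and 41.8 CPM in WT. Its dKO libraries were above the WT libraries, with a log2 fold change of 0.19 ± 0.09 (95% interval 0.01 to 0.38) that missed the threshold after adjustment (edgeR adjusted p = 0.0997). Without dKO replicate 1 it was 0.30 and passed (edgeR adjusted p = 0.0422).

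H19 had 955 and 939 CPM in dKO, against 1143 and 1171 CPM in WT. It was lower in both dKO libraries, by a log2 fold change of -0.29 ± 0.02 (edgeR adjusted p = 1.07e-37). H19 and Igf2 thus changed by like amounts in opposite directions. In bulk tissue such as this, fewer cells of a type and less RNA per cell cannot be told apart. The coding strand of Igf2 shares 3596 exon bases with the read-through gene Gm49394, which has no row in the total RNA table, and 98 bases with the antisense gene Igf2os, which held 172 counts over 4 libraries against 50760 for Igf2.

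The receptors showed the smallest differences of the 10 genes. Igf1r, the receptor for both IGFs, had 179 and 186 CPM in dKO, against 189 and 202 CPM in WT, a log2 fold change of -0.10 ± 0.05 (95% interval -0.19 to -0.01, edgeR adjusted p = 0.0912). Both dKO libraries were below the WT pair, and without WT replicate 1 the difference was -0.15 and passed (edgeR adjusted p = 0.0267). Insr, the insulin receptor, had 93.3 and 93.7 CPM in dKO, against 88.3 and 87.3 CPM in WT. Its log2 fold change was 0.09 ± 0.07 (95% interval -0.04 to 0.22, edgeR adjusted p = 0.314), although the groups did not overlap. Igf2r, the receptor that removes IGF2, had 67.3 and 77.2 CPM in dKO, against 75.7 and 79.9 CPM in WT. Its groups overlapped, and the log2 fold change was -0.11 ± 0.07 (95% interval -0.25 to 0.03, edgeR adjusted p = 0.273).

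The adaptors Irs1 and Irs2, which dock PI3K to the activated receptors, differed from each other in direction. Irs1 had 174 and 189 CPM in dKO, against 136 and 139 CPM in WT. It was higher in both dKO libraries, by 0.40 ± 0.05 on the log2 scale (1.32-fold, edgeR adjusted p = 1.31e-13), the largest change of the 10 genes in total RNA. Part of Irs1 (2822 exon bases) is overlapped on the opposite strand by Gm9747, which has no row in the total RNA table, and the strand setting of the counting is not given in the sources used here. Irs2 had 25.3 and 19.97 CPM in dKO, against 25.4 and 27.3 CPM in WT. Its dKO libraries lay apart from each other, with replicate 1 close to WT, and the log2 fold change of -0.22 ± 0.12 did not pass (95% interval -0.46 to 0.02, edgeR adjusted p = 0.168). Without dKO replicate 1 it was -0.40 (edgeR adjusted p = 0.0494).

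Both binding proteins, which lie next to each other on chromosome 1, fell in dKO. Igfbp2 had 194 and 191 CPM in dKO, against 232 and 234 CPM in WT, a log2 fold change of -0.28 ± 0.04 (edgeR adjusted p = 8.99e-09). Igfbp5 had 143 and 140 CPM in dKO, against 187 and 177 CPM in WT, a log2 fold change of -0.36 ± 0.05 (edgeR adjusted p = 2.07e-11). For each gene both dKO libraries were below both WT libraries.

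The genes with let-7 matches can be read against these values. None of the 5 genes with an 8-base match (Igf1, Igf1r, Insr, Igf2r and Irs2) passed the threshold in total RNA, and their log2 fold changes ran between -0.22 and 0.19. Igfbp5, with a 7-base match only, fell, while of the genes with none Igf2 and Irs1 rose and Igfbp2 fell. Over the tested genes with an annotated 3′ UTR, the 504 with an 8-base match had a median log2 fold change of -0.06, with 56 called higher and 122 called lower. The 930 with only a 7-base match had a median of -0.03 (136 higher, 180 lower), and the 11844 with neither had a median of 0.00 (1786 higher, 1945 lower). The shares called were 35.3%, 34.0% and 31.5% in that order. The 8-base genes of the axis are part of the first of these classes.

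Markers of cells that express IGF genes moved unevenly in total RNA. Summed levels of 14 mesenchyme markers were 484 to 490 CPM in dKO and 551 to 580 CPM in WT, with 5 of 13 tested markers lower and 0 higher in dKO. Pericyte markers (6 genes) summed to 62.3 to 65.2 CPM in dKO and 45.9 to 50.6 CPM in WT, and choroid plexus and roof plate markers (8 genes) to 82.1 to 90.0 CPM in dKO and 60.8 to 61.5 CPM in WT. Endothelial markers (11 genes) stood at 232 to 239 CPM in dKO and 232 to 233 CPM in WT, none of them called. Macrophage markers (10 genes) summed to 55.3 to 67.6 CPM in dKO and 53.4 to 58.2 CPM in WT, and muscle markers (5 genes) to 1.34 to 1.80 CPM in dKO and 2.45 to 3.12 CPM in WT. Erythroid markers fell (7 of 8 tested, 2695 to 2700 CPM in dKO and 4413 to 4479 CPM in WT, Hba-a1 and Hba-a2 being listed at 0). Of the brain's own markers, neural progenitor markers stood at 4076 to 4123 CPM in dKO and 4453 to 4495 CPM in WT, and neuronal markers at 4308 to 4319 CPM in dKO and 4474 to 4494 CPM in WT. Of the tested markers, 3 of 6 pericyte and 1 of 7 choroid plexus and roof plate markers were called, all higher. Neural progenitor markers went both ways (2 higher and 4 lower of 11). So did neuronal (2 higher and 3 lower of 9) and macrophage markers (2 higher and 1 lower of 10). Of 2 tested muscle markers 1 was lower. Over all genes tested, 30.7% were called. The part of these marker differences in the changes of Igf2, H19, Igfbp2 and Igfbp5 was not tested.

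By a fixed rule of likeness, the genes whose profile over the 4 total RNA libraries lay nearest to Igf2 were Eci2, Zdhhc18, Phf21b, Med15 and Celf2. Likeness was the distance between log2 CPM values centred on each gene's own mean, over the 11534 genes that averaged 5 CPM or more. The nearest, Eci2, lay at a distance of 0.0046 and averaged 83.5 CPM in dKO and 68.2 CPM in WT. The fifth, Celf2, lay at 0.015 with 361 CPM in dKO and 297 CPM in WT. In all, 87 genes lay within a distance of 0.05.

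Of 56 further genes, of the pathway or of a list of imprinted growth genes, 51 could be tested in total RNA. Of these, 12 rose and 12 fell in dKO, where 30.7% of all genes were called. Their median log2 fold change was 0.01, against 0.00 for all genes. Ins1, Ins2, Igfbp1, Igfbp6 and Igfals had too few reads to be tested. Of the 10 imprinted growth genes, which include Grb10 (below), 2 rose and 4 fell. Slc38a4 fell by 0.59 ± 0.14 and Dlk1 by 0.32 ± 0.05, while Dcn (0.37 ± 0.19) did not pass. Among other binding proteins, proteases and their inhibitors, 4 of 8 tested genes rose and 2 fell. Igfbpl1, a binding protein-like gene of the developing nervous system, was the most abundant of those named, at 498 ± 13.2 CPM in dKO and 329 ± 0.91 CPM in WT (SD, n = 2 each), a log2 fold change of 0.60 ± 0.03 (edgeR adjusted p = 2.35e-69). Igfbp7 rose by 0.65 ± 0.20, Stc1, which inhibits the IGFBP-cleaving pappalysins, by 0.60 ± 0.18, and the protease Pappa2 fell by 0.88 ± 0.26, all at under 15 CPM. Each of these 3 lost its call when a library was left out (Igfbp7 and Pappa2 without dKO replicate 2, Pappa2 also without WT replicate 2, and Stc1 without dKO replicate 1 or WT replicate 1, where it was 0.35), and Stc1 lost it with DESeq2 as well.

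Of 13 adaptors and related genes next to the receptor, 1 was called higher and 1 lower in total RNA, where 30.7% of all genes were called. The lower gene was Grb10, an imprinted adaptor that restrains insulin and IGF receptor signalling. It had 697 ± 0.33 CPM in dKO and 892 ± 3.44 CPM in WT (log2 fold change -0.36 ± 0.02, edgeR adjusted p = 3.56e-44). The exchange factor Sos2 rose by 0.17 ± 0.06, a call lost without dKO replicate 1 or WT replicate 1. Sos1 (0.12 ± 0.05) and Irs4 (-0.11 ± 0.19) did not pass. In the PI3K, AKT, GSK3 and FOXO group 5 of 18 genes rose and 3 fell, beside the same 30.7% of all genes. The PI3K subunit Pik3cd fell by 0.35 ± 0.14, the phosphatase Inppl1 by 0.27 ± 0.07 and Phlpp1, a phosphatase that acts on AKT, by 0.22 ± 0.08. Of the 4 fits with a library left out, Pik3cd kept its call only without WT replicate 1 and Phlpp1 only without dKO replicate 1, while Inppl1 lost its call only without WT replicate 1 (-0.17). With DESeq2 Sos2, Pik3cd and Phlpp1 did not pass.

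The 3 Igf2 mRNA-binding proteins, known let-7 targets in several systems, all fell in dKO. Igf2bp1 had 221 ± 0.18 CPM in dKO and 451 ± 8.88 CPM in WT (log2 fold change -1.03 ± 0.04, edgeR adjusted p = 2.90e-167). Igf2bp2 had 125 ± 2.34 CPM in dKO and 247 ± 4.10 CPM in WT (-0.98 ± 0.05), and Igf2bp3 had 144 ± 0.91 CPM in dKO and 199 ± 4.86 CPM in WT (-0.47 ± 0.05). These were larger changes than those of any gene of the axis proper. The UTR of Igf2bp1 held 4 of the 7-base matches, 3 of them 8-base matches, while those of Igf2bp2 and Igf2bp3 held 1 8-base match each.

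**Figure D2:**
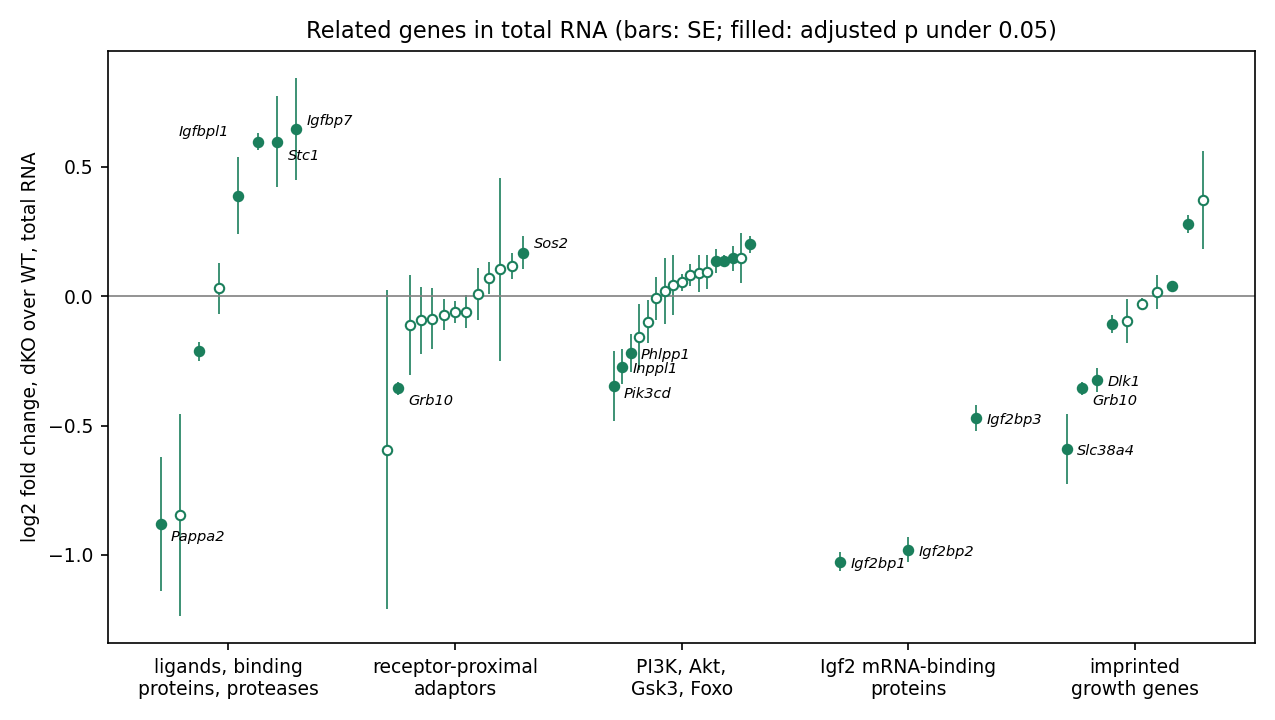
log2 fold change of further pathway genes that are reported here in total RNA, dKO over WT, by role and ordered by value within each role; bars are SE, filled points passed an adjusted p of 0.05 (edgeR). The 3 Igf2 mRNA-binding proteins lie at -1.03, -0.98 and -0.47, and the first 2 of these are the lowest genes drawn.

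Polysomal RNA gave a second view of 8 of the 10 genes. Insr and Irs1 are not listed in that table and their polysomal levels were not analysed here. Igf2, H19, Igf1r, Igf2r, Irs2 and Igfbp2 were higher in dKO and Igf1 and Igfbp5 lower, so that 8 of 8 were called (6 higher, 2 lower). This count says nothing of the axis, because 99.7% of all genes tested in polysomal RNA were called and 98.3% differed by at least 0.3 on the log2 scale. Where the libraries averaged 100 counts or more, no gene had a log2 ratio of dKO to WT counts between -2.04 and -1.71, while 2927 lay below and 2514 above. How the listed genes were chosen is not stated in the labels, and the fold changes below hold only within that list. All polysomal levels are CPM of the listed genes, so a positive fold change means higher relative to those genes.

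Igf2 had 909 and 864 CPM in dKO polysomal RNA, against 650 and 669 CPM in WT polysomal RNA. Both dKO libraries were higher, by 0.43 ± 0.06 on the log2 scale (edgeR adjusted p = 0.000806). Igf1 had 35.0 and 35.4 CPM in dKO, against 71.8 and 75.5 CPM in WT. It was lower in both dKO libraries, by -1.06 ± 0.12 (edgeR adjusted p = 0.000511), on only 119 and 180 counts in dKO. H19 had 410 and 385 CPM in dKO, against 312 and 315 CPM in WT, and was higher in both dKO libraries (0.34 ± 0.07, edgeR adjusted p = 0.00294).

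Both receptors in the table were higher in dKO. Igf1r had 293 and 286 CPM in dKO, against 232 and 228 CPM in WT (log2 fold change 0.33 ± 0.07, edgeR adjusted p = 0.00365). Igf2r had 139 and 166 CPM in dKO, against 115 and 100.2 CPM in WT (0.51 ± 0.12, edgeR adjusted p = 0.00741). The groups overlapped in neither gene, among genes of which 99.7% were called. The call of Igf1r was lost without either WT polysomal library, that of Igf2r without WT replicate 2 (0.41) and that of H19 without WT replicate 1 (0.33). Scaling by library sums, with no TMM factor, ended both calls (Igf1r 0.17, edgeR adjusted p = 0.0646, and Igf2r 0.35, edgeR adjusted p = 0.0656). Irs2 had 50.3 and 57.9 CPM in dKO, against 33.0 and 30.9 CPM in WT, and was higher in both dKO libraries (0.76 ± 0.15, edgeR adjusted p = 0.00312).

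The binding proteins went opposite ways. Igfbp2 had 955 and 833 CPM in dKO, against 384 and 377 CPM in WT, 2.35-fold higher (log2 fold change 1.23 ± 0.08, edgeR adjusted p = 0.000112), the largest difference of the 8. Per kilobase it was the most abundant RNA of the axis in polysomal RNA, at 484 CPM per kb in dKO and 206 in WT, ahead of H19 (161 in dKO, 127 in WT) and Igf2 (155 in dKO, 115 in WT). H19 and Igf2 overlapped between dKO libraries, and so did Igf1r and Igf2r. Igfbp5 had 179 and 190 CPM in dKO, against 260.1 and 266 CPM in WT, and was lower in both dKO libraries (-0.51 ± 0.08, edgeR adjusted p = 0.0011). RLE scaling moved Igf2 to 0.66, H19 to 0.58, Igf1r to 0.57 and Igfbp5 to -0.28, and library sums moved Igf2 to 0.26 and H19 to 0.18, with no change of direction.

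Marker sums differed more in polysomal than in total RNA, among the markers listed there, and so did genes at large. The median absolute log2 fold change of all genes tested was 0.89 in polysomal and 0.20 in total RNA. Mesenchyme markers (8 listed) summed to 1331 to 1615 CPM in dKO and 615 to 619 CPM in WT, and choroid plexus and roof plate markers (3 listed) to 256 to 271 CPM in dKO and 50.6 to 57.0 CPM in WT. Neural progenitor markers (8 listed) summed to 7608 to 7953 CPM in dKO and 5266 to 5309 CPM in WT, while neuronal markers (5 listed) summed to 2546 to 2696 CPM in dKO and 4315 to 4335 CPM in WT. Endothelial markers (4 listed) summed to 214 to 252 CPM in dKO and 114 to 121 CPM in WT. Erythroid markers (5 listed) summed to 4885 to 4919 CPM in dKO and 8669 to 8797 CPM in WT. For 2 macrophage markers the sums were 27.4 to 28.8 CPM in dKO and 21.2 to 22.7 CPM in WT. The 1 pericyte marker stood at 7.35 to 9.65 CPM in dKO and 1.84 to 3.37 CPM in WT. Called higher and lower were 6 and 2 mesenchyme, 3 and 0 choroid plexus and roof plate, 6 and 2 neural progenitor, and 0 and 4 neuronal markers. Endothelial counts were 3 and 1, erythroid 0 and 5, macrophage 1 and 1, and pericyte 1 and 0. As 99.7% of all genes tested in polysomal RNA were called, these counts follow the background. The marker values are not adjusted for transcript GC content, which the polysomal changes of genes at large followed (described below). The part of these marker differences in the polysomal values of Igf2 and Igfbp2 was not tested.

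**Figure D3:**
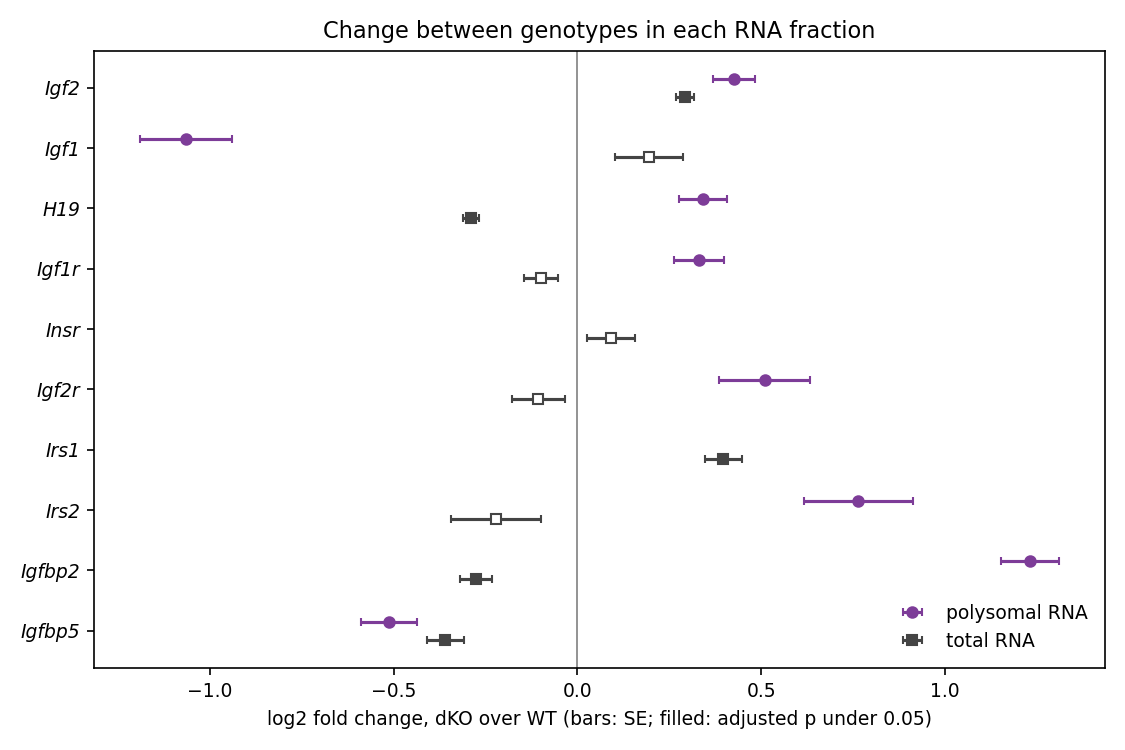
log2 fold change, dKO over WT, of each gene in polysomal RNA (circles) and total RNA (squares); bars are SE, filled points passed an adjusted p of 0.05 (edgeR), and Insr and Irs1 have no polysomal value. H19 lies at 0.34 in polysomal and -0.29 in total RNA and Igfbp2 at 1.23 and -0.28, while Igfbp5 is negative in both.

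The polysomal changes followed the base composition of the transcripts. Over 5572 genes the log2 fold change and the GC content of the longest transcript had a Spearman rho of 0.764, against -0.088 over 14039 genes in total RNA, a description over genes that share the same 4 libraries. The 8 genes of the axis lay along the same trend, with a rho of 0.905. Igf1, the poorest in GC at 38.0%, was lowest at -1.06, and Igfbp2, the richest at 62.1%, was highest at 1.23. Genes within 1 percentage point of GC had a median of -1.27 for Igf1 (213 genes) and 1.22 for Igfbp2 (154 genes), close to the values of Igf1 and Igfbp2 themselves. Igf2 and H19, both at 55.8% GC, lay below their neighbours in GC, at 0.43 and 0.34 against medians of 0.83 and 0.83. Igf1r (49.4% GC) lay at 0.33 against a median of -0.33, Igfbp5 (50.3% GC) at -0.51 against 0.45, Igf2r (51.2% GC) at 0.51 against 0.53, and Irs2 (56.6% GC) at 0.76 against 0.88. Near the middle of the GC range the neighbours spread to both sides of 0. Their lower and upper quartiles were -0.67 and 0.66 for Igf1r, -0.53 and 0.81 for Igfbp5, and -0.47 and 0.84 for Igf2r. Each of these genes lay between its quartiles.

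With a GC adjustment the polysomal comparison called 5 of the 8 genes (2 higher, 3 lower), where it called 49.6% of all genes (2863). Igf2 in dKO then lay below the trend of listed genes of like GC content (-0.35, edgeR adjusted p = 0.00171). So did H19 (-0.43, edgeR adjusted p = 0.00137), both the reverse of the unadjusted sign. The adjusted values are relative to that trend, which rests on a list with almost no gene near 0. They do not by themselves show a fall in level. Igf1 turned to 0.38 (edgeR adjusted p = 0.0499). Igf2r (0.28), Irs2 (-0.06) and Igfbp2 (0.00) no longer passed. Igf1r and Igfbp5 kept their direction and their call. In total RNA the same adjustment left 5 of the 10 genes called.

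**Figure D4:**
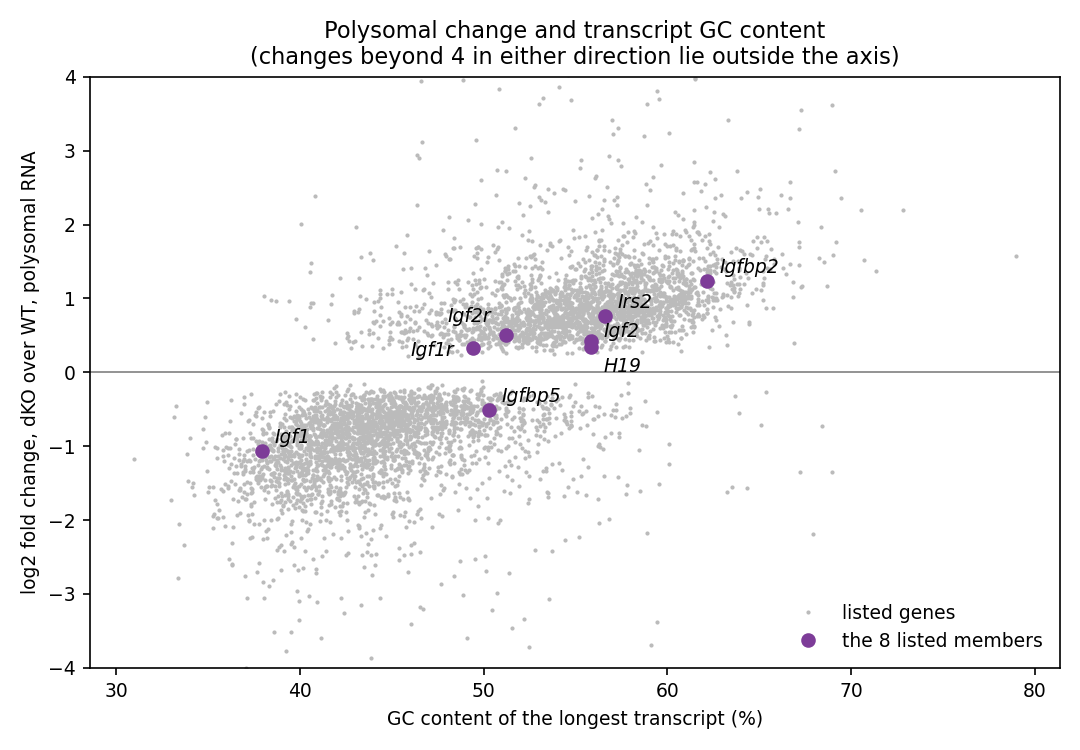
log2 fold change, dKO over WT, in polysomal RNA against the GC content (%) of each gene's longest transcript, for 5572 listed genes (grey; 80 of them lie beyond the axis) and the 8 genes of the IGF axis (purple). Higher GC goes with a higher dKO level, and almost no gene lies near 0.

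Of the further pathway genes, 32 are listed in polysomal RNA, and 17 were higher and 15 lower in dKO. As 99.7% of all listed genes were called, this count too follows the background. The largest were Igfbp7 (2.55 ± 0.15) and Stc2 (1.73 ± 0.28) among binding proteins and their regulators, Sh2b2 (0.98 ± 0.11) and Sos2 (-0.83 ± 0.11) among adaptors, and Akt1 (0.94 ± 0.07) and Pik3r2 (0.84 ± 0.11) among PI3K and AKT genes. Among imprinted growth genes they were Cdkn1c (1.39 ± 0.07) and Slc38a4 (-1.25 ± 0.23). With the GC adjustment Sh2b2, Akt1 and Pik3r2 turned negative (-0.27, -0.14 and -0.35), Sos2 lost its call at -0.05 (edgeR adjusted p = 0.742) and Igfbp7 stood at 1.55. Cdkn1c then stood at 0.34, and Slc38a4 lost its call at -0.33 (edgeR adjusted p = 0.294). The 3 Igf2 mRNA-binding proteins were lower in dKO, as in total RNA. Igf2bp1 averaged 267 ± 17.1 CPM in dKO and 553 ± 9.40 CPM in WT (SD, n = 2 each), a log2 fold change of -1.05 ± 0.07 (edgeR adjusted p = 0.000122). Igf2bp2 was at -1.17 ± 0.07 and Igf2bp3 at -1.07 ± 0.08. They kept their direction with the GC adjustment, Igf2bp3 at -0.45.

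Set against total RNA, the polysomal level shows how strongly an RNA is represented among ribosome-bound RNA. This comparison was made over the 5802 genes in both tables, with CPM scaled on those genes alone. In WT, H19, Igf2 and Igf1r were lower in polysomal RNA and the other 5 did not pass. That is 3 of 8 called, all lower, where 12.0% of all genes were called. H19 had 313 and 315 CPM in WT polysomal RNA, against 1707 and 1751 CPM in WT total RNA. This was a 5.51-fold lower level (log2 fold change -2.46 ± 0.04, edgeR adjusted p = 2.24e-10), the tenth lowest of 5780 genes, for an RNA that codes for no known protein. Igf2 had 652 and 669 CPM in WT polysomal RNA, against 1103 and 1093 CPM in WT total RNA. It was lower in both polysomal libraries, by -0.73 ± 0.04 (edgeR adjusted p = 2.31e-06), rank 127 from the lowest.

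Igf1r had 233 and 228 CPM in WT polysomal RNA, against 282 and 302 CPM in WT total RNA (log2 fold change -0.34 ± 0.06, edgeR adjusted p = 0.00354). Its groups did not overlap, but the call was lost when WT total replicate 2 or either WT polysomal library was left out (-0.29 to -0.36). The other genes lay near their total level in WT, with log2 fold changes of 0.21 for Igf1 (95% interval -0.01 to 0.43), 0.13 for Igfbp2 (-0.003 to 0.26), -0.04 for Igfbp5 (-0.17 to 0.09), -0.11 for Igf2r (-0.35 to 0.13) and -0.30 for Irs2 (-0.61 to 0.01). Igf1, Igfbp2 and Irs2 passed at nearly the same values when either dKO polysomal library, the pair with the widest spread, was left out of the shared fit, which then called 6 of 8 genes (2 higher, 4 lower) and 34.3% or 34.6% of all genes.

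In dKO, 7 of 8 genes were called (3 higher, 4 lower) against 90.0% of all genes, so the count follows the background. H19 had 417 and 395 CPM in dKO polysomal RNA, against 1419 and 1393 CPM in dKO total RNA (log2 fold change -1.80 ± 0.04). Igf2 had 924 and 886 CPM in dKO polysomal RNA, against 1347 and 1325 CPM in dKO total RNA (-0.56 ± 0.04). H19 and Igf2 were thus lower in polysomal than in total RNA in each genotype, with no overlap between libraries. Igfbp2 had 971 and 855 CPM in dKO polysomal RNA, against 289 and 283 CPM in dKO total RNA (1.67 ± 0.06), and was the highest of the 8 before any GC adjustment. Igf1 was lower (-1.01 ± 0.12), Igf2r and Irs2 were higher (0.55 ± 0.11 and 0.73 ± 0.15), Igfbp5 was lower (-0.16 ± 0.06, a call lost with RLE scaling at -0.02 and without any library but dKO polysomal replicate 2), and Igf1r did not pass (0.13 ± 0.06, edgeR adjusted p = 0.0632). Igf1r did pass with RLE scaling (0.27, edgeR adjusted p = 0.00171), with DESeq2 (0.27) and without either dKO polysomal library (0.13 and 0.14). With the GC adjustment, under which 58.8% of all genes were called, Igf1 turned to 0.45 and Irs2 to -0.12, and Igf2r lost its call (0.27, edgeR adjusted p = 0.0554). Igfbp2 then stood at 0.44, level with Igf1, Igf2 at -1.35 and Igfbp5 at -0.30.

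**Figure D5:**
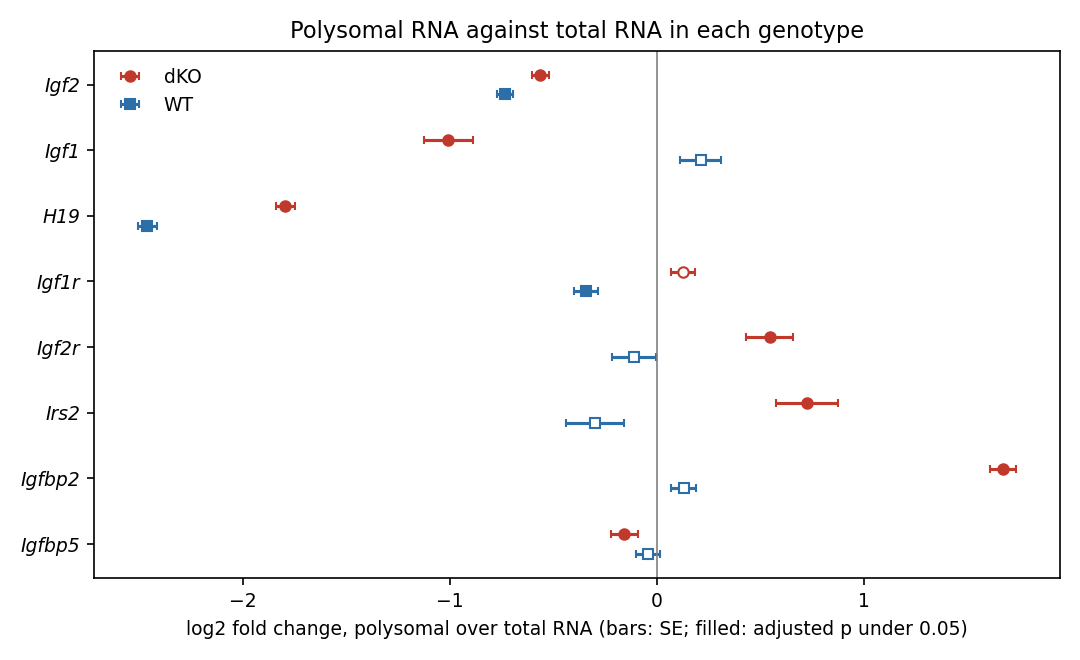
log2 fold change, polysomal over total RNA, of 8 genes in dKO (circles) and WT (squares); bars are SE and filled points passed an adjusted p of 0.05 (edgeR). H19 is the lowest in both genotypes (-1.80 in dKO, -2.46 in WT), and Igfbp2 differs most between them (1.67 in dKO, 0.13 in WT).

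Whether the difference between genotypes itself differed between fractions was tested as an interaction over all 8 libraries. It passed for 7 of 8 genes (6 higher, 1 lower), where 89.5% of all genes passed. Only genes listed for polysomal RNA could be tested, and 98.3% of the genes tested there differed by at least 0.3 between genotypes. A pass therefore does not set a gene apart from the list. The largest interaction was that of Igfbp2, whose polysomal difference exceeded its total difference by 1.54 ± 0.09 on the log2 scale (edgeR adjusted p = 5.37e-07). Irs2 (1.03 ± 0.21), H19 (0.67 ± 0.06), Igf2r (0.66 ± 0.16) and Igf1r (0.47 ± 0.08) followed, and Igf1 was the gene on the other side (-1.22 ± 0.15). For Igf2 the interaction was 0.17 ± 0.06 (edgeR adjusted p = 0.0173), a value that was 0.30 with RLE scaling or DESeq2, both past the threshold, -0.01 when scaled by library sums and -0.62 with the GC adjustment. Its call was also lost without dKO total replicate 2 (0.15), without WT total replicate 1 (0.16) and without WT polysomal replicate 1 (0.15). Igfbp5, which fell in both fractions, gave an interaction of -0.11 ± 0.09 that did not pass (95% interval -0.31 to 0.08, edgeR adjusted p = 0.23). It did pass with library sums (-0.29, edgeR adjusted p = 0.0261), and lay at 0.01 with RLE scaling and with DESeq2. With the GC adjustment 4 of 8 genes passed, where 44.2% of all genes passed. Of the 7 genes called without it, Igf1r (0.45) and Igfbp2 (0.31, edgeR adjusted p = 0.00131) kept their call and direction, and Igf2 was called with the reverse sign. Igf1 (0.23), H19 (-0.12), Igf2r (0.38) and Irs2 (0.18) did not pass, and Igfbp5 was called (-0.26, edgeR adjusted p = 0.0251).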

How the data were processed

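The authors deposited whole-number read counts per gene symbol for total RNA and for polysomal RNA, with no normalization. Per the labels' protocols, RNA was extracted with Trizol and libraries were strand-specific. The submitters' processing notes name TopHat, HTSeq and FastQC, and as builds mm9, mm10 and GRCm38. Versions and roles are not stated there. Counts were tested with edgeR 4.0.16 in R 4.3.3 (quasi-likelihood F test, TMM, filterByExpr) with Benjamini-Hochberg adjustment over all genes and a threshold of 0.05. Each genotype comparison used its own 4 libraries, and the fraction comparisons and the interaction used all 8. The steps were tested on simulated data in which few genes changed, equally up and down, with no GC trend. That test therefore does not cover the broad shifts of the polysomal libraries. Gene coordinates, lengths, GC content and 3′ UTRs came from GENCODE M21 (GRCm38), matched by symbol for 95.6% of total RNA rows (length) and 96.5% of polysomal rows (GC content). Further pathway genes named are up to 4 (polysomal: 2) per list with the largest changes at a mean of at least 5 CPM, plus Igf2bp1, Igf2bp2 and Igf2bp3. The members and lists were chosen with earlier results of these data known. The alternatives tried were RLE scaling, library sums, DESeq2 1.42.0, no low-count filter, a replicate block, a GC adjustment (loess, span 0.5), the empty interval placed at 0, all 8 libraries in 1 fit, and each library left out. The series text speaks of fewer groups than the labels, which were followed. For 1 gene of the pathway lists the result is not reported here, although counts over its list include it.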

Additional observations from a re-analysis of the deposited data

Results flagged for a closer look

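For 7 genes the difference between dKO and WT was not the same in polysomal and total RNA by the interaction test (edgeR quasi-likelihood, Benjamini-Hochberg adjusted p under 0.05), a property shared by 89.5% of all genes tested. Only genes listed for polysomal RNA could be tested, and 99.7% of the genes tested there were called between genotypes. Passing therefore does not set the 7 genes apart. The polysomal minus the total log2 fold change was 1.54 for Igfbp2, 1.03 for Irs2, 0.67 for H19, 0.66 for Igf2r, 0.47 for Igf1r, 0.17 for Igf2 and -1.22 for Igf1. H19 and Igfbp2 passed the test in both fractions with opposite signs, H19 at 0.34 in polysomal and -0.29 in total RNA and Igfbp2 at 1.23 in polysomal and -0.28 in total RNA. Transcript GC content moved with the polysomal changes, and with the adjustment for it 44.2% of all genes passed the interaction test. Of the 7 genes, Igf1r (0.45) and Igfbp2 (0.31) then passed with the same sign and Igf2 (-0.62) with the reverse sign, while Igf1, H19, Igf2r and Irs2 did not pass.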

How the results depend on the processing

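In total RNA 5 of the 10 genes were called under each scaling, tool, filter and GC setting and with the replicate block, and 5 to 7 when a library was left out. The fit of all 8 libraries, which holds no Insr or Irs1, called 4 of the other 8 (1 higher, 3 lower). The count of further pathway genes, 24 in total RNA, was 15 with DESeq2, 13 with all 8 libraries in 1 fit and 16 to 19 with a library left out. Irs4 ran between -0.44 and 0.32 with a library left out, reversing without WT replicate 1. The GC adjustment mattered most in polysomal RNA: it called 5 of 8 genes of the axis and 21 of 32 pathway genes. It turned Igf2 to -0.35, Igf1 to 0.38, H19 to -0.43, Irs2 to -0.064, Igfbp2 to -0.0048, Sh2b2 to -0.27, Akt1 to -0.14 and Pik3r2 to -0.35. For polysomal over total RNA in dKO it turned Igf1 to 0.45 and Irs2 to -0.12. In the interaction it called 4 genes (Igf1r and Igfbp2, Igf2 with the reverse sign at -0.62, and Igfbp5, not called without it) and turned Igf1 to 0.23 and H19 to -0.12. In the WT comparison of fractions it called 3 genes of the axis, as without it, and 869 of all genes against 693. The adjustment fitted each library against the WT mean of its own fraction. It could therefore hardly move WT fold changes between fractions, and this count does not test them against GC content. RLE scaling and DESeq2 turned the interaction of Igfbp5 to 0.012 and 0.012, and library sums turned that of Igf2 to -0.011 and the WT fraction value of Igfbp5 to 0.015. With a library left out, the genes of the axis called were 6 to 8 in polysomal RNA, 2 to 6 for WT fractions, 6 to 8 for dKO fractions and 6 to 7 in the interaction. The pathway genes called were 27 to 32, 0 to 15, 30 to 32 and 27 to 29 in those comparisons. The WT fraction counts were highest without a dKO polysomal library, at 6 and 6 genes of the axis and 15 and 13 pathway genes. Same-numbered replicates did not deviate together (correlations of 0.0034 to 0.039). With the replicate block 5, 8, 3, 6 and 7 genes of the axis were called in total RNA, polysomal RNA, WT fractions, dKO fractions and the interaction, Igfbp5 losing its dKO fraction call (edgeR adjusted p = 0.0539). The cause of these shifts was not tested. With 2 replicates a group and 119 to 180 counts, Igf1 in dKO polysomal RNA rests on the fewest reads.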
